A study of Rattus norvegicus with 24 samples.

Results

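The 9 keratins Krt5, Krt14, Krt15, Krt17, Krt6a, Krt1, Krt10, Krt4 and Krt13 were followed in colon and colonic tumours of rats. They were taken by gene name from the rat array, as every gene probe whose name, with a suffix for predicted genes dropped or an older name updated through its accession, is that of a member. The 9 were chosen with earlier results of these data known. This gave 11 probes of 41012 gene probes, because Krt5 and Krt14 have 2 probes each. All 11 passed a filter on Cy3 signal (well above background on at least 5 of 24 arrays), which left 26627 features to test, and the brighter probe stands for Krt5 and for Krt14. In normal colon all 9 were higher in rats that had drunk dextran sodium sulfate (DSS) than in untreated rats, as were 3.91% of all features tested, and in tumours none was called different between the treatments, nor was any other feature (0%).

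Keratins are the intermediate filament proteins of epithelia and form filaments as pairs of a type I and a type II protein. The lining of the colon is a single layer of columnar cells whose filaments are made of the simple keratins Krt8, Krt18, Krt19 and Krt20. Stratified squamous epithelia, such as epidermis, oesophagus and the anal canal, use other pairs that change with the layer. Krt5 and Krt14 are the pair of the dividing basal layer and Krt15 is a second basal type I keratin, Krt6a and Krt17 appear in wounded and activated keratinocytes, Krt1 and Krt10 are the pair of the layers above the basal one in epidermis, and Krt4 and Krt13 are the pair of those layers in lining mucosa such as oesophagus.

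Every rat was a male of the (ACIxF344)F1-Pirc cross with the genotype Apc-Pirc/+, that is, heterozygous for a mutation of the tumour suppressor Apc, so the normal colon of all groups came from mutant rats. Tissue of the distal colon was taken at 97 days of age. The DSS rats, numbered 1, 5, 6, 7 and 9, drank 4% DSS of molecular weight 500000 in 2 periods, days 40 to 47 and days 54 to 61, and the untreated rats were 2, 3, 4, 8 and 10. Each rat gave a tumour and a sample of normal colon, which made 4 groups of 5 rats: tumours of DSS rats on 6 arrays, tumours of untreated rats on 5, normal colon of DSS rats on 6 and normal colon of untreated rats on 7. Each sample, labelled with Cy3, was hybridised together with a pool of colon RNA from rats with wild-type Apc, labelled with Cy5. Values below are log2 of Cy3 over Cy5, averaged over arrays of the same rat and tissue. A value of 0 means a signal equal to that of the pool on that array, and at probes near background both channels are low and the ratio lies near 0 for that reason too.

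The 60-base probes of the members whose identity bears on a result are printed from the array files, with capitals for the longest run of bases that a probe shares with any other of the 11 probes. They are the pairs of Krt5 and of Krt14, which read the same gene name at different places, and the probe of Krt6a.
Krt5, brighter probe: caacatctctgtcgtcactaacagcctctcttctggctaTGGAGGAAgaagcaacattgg
Krt5, dimmer probe: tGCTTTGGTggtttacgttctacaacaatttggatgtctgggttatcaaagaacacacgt
Krt14, brighter probe: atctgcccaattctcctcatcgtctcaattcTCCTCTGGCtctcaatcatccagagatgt
Krt14, dimmer probe: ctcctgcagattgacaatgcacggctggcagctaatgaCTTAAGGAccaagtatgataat
Krt6a: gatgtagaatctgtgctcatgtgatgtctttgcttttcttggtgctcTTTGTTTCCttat
Over the 55 pairs of member probes the longest shared run was 4 to 9 bases, and the best identity without gaps over at least 40 bases was 30.6% to 52.3%, so no member's probe repeats the sequence of another's. The accession of the Krt6a probe now belongs to Krt6c in RefSeq, which lists Krt6a as an older name of it, so this probe may read either gene or both. The dimmer Krt14 probe carries a separate accession, and RefSeq gives Krt14 also as an older name of Krt16, so its gene is not settled. The dimmer Krt5 probe rests on an expressed sequence tag.

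Promoters from RefSeq, build GRCr8, were matched for Krt5, Krt10, Krt4 and Krt6c, 250 bases before to 50 after the annotated start, and were searched on both strands for the AP-1 motif TGANTCA, the TATA box TATAAA, the CCAAT box and the GC box GGGCGG. The build behind the array is not named in its files. A type II and a type I member are printed, with these motifs in capitals.
Krt5, chr7:134730520-134730819, minus strand: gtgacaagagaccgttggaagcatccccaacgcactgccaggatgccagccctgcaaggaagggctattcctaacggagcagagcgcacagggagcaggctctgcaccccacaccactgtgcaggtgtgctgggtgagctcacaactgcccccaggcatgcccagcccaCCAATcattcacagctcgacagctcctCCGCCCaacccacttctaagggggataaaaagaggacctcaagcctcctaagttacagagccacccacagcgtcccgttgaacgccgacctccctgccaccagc
Krt10, chr10:84839111-84839410, minus strand: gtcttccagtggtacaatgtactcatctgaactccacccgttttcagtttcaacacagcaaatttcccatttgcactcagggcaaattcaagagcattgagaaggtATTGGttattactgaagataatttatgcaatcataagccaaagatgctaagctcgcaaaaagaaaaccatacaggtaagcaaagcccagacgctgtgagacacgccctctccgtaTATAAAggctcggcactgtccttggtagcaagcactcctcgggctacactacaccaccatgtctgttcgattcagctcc
The Krt5 window held CCAAT 81 bases and the reverse of GGGCGG 54 bases before the start, and the Krt10 window held TATAAA 29 bases and the reverse of CCAAT 144 bases before it. The window of Krt4 held TGANTCA 249 bases before its start, and that of Krt6c held none of the 4. Of 33469 promoters of that length, 7.33% held TGANTCA, 14.2% TATAAA, 37.5% CCAAT and 33.1% GGGCGG, and no motif was found in more than 2 of the 4 members.

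The share of gene probes that Cy3 lifted well above background was 47.6% to 70.5% on 21 arrays and 86.9% to 95.2% on the other 3, namely the tumour of rat 9, the normal colon of rat 4 and 1 of the arrays of the normal colon of rat 2. The arrays fell into 2 sets by their slide identifiers, with 3 rats of every group in set 1 and 2 rats of every group in set 2. The normal colons of DSS rats 1 and 5 correlated at 0.970 across features, against 0.723 to 0.863 for the other pairs of that group. Second arrays of a single sample correlated with its first at 0.812 to 0.968. Why rats 1 and 5 were so alike was not tested. The counts below were also computed without the 3 arrays of raised signal, without rats 1 and 5, and within each set.

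The first comparison was DSS against untreated rats in normal colon, which asks what this tissue looked like on day 97, after the second DSS period had ended on day 61. All 9 keratins rose: the log2 difference ran from 1.10 for Krt17 to 4.04 for Krt6a with a median of 2.53, sizes that saturated spots limit for Krt6a, Krt15 and Krt13, and of all features tested 3.91% were called higher. For 7 of the 9, every DSS rat lay above every untreated rat, as did 4.53% of all features. The tests are limma's moderated tests with Benjamini-Hochberg adjustment over all features. In bulk tissue more cells of a type and more RNA per cell cannot be told apart.

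The basal pair rose together. Krt5 had log2 ratios of 2.37, 2.60, 2.23, 2.69 and 3.79 in normal colon of DSS rats 1, 5, 6, 7 and 9, against 0.14, 0.051, 0.11, 0.70 and 0.0016 in untreated rats 2, 3, 4, 8 and 10. Every DSS rat stood well above the untreated rats, 4 of which were at the level of the pool. The difference was 2.53 ± 0.21 (SE, 5 rats a group), or 5.79-fold on the ratio, with an adjusted p of 1.76e-06. Krt14 had 2.26, 2.39, 2.14, 2.61 and 3.34 in DSS rats, against -0.051, -0.10, 0.25, 1.55 and 0.0039 in untreated rats. The groups did not overlap, with untreated rat 8 nearest to the DSS rats, and the difference was 2.22 ± 0.32 (adjusted p = 0.000314). The dimmer Krt14 probe gave 1.52 ± 0.20 (adjusted p = 0.000102), without overlap of the groups, and it was well above background on 24 of 24 arrays. The dimmer Krt5 probe was well above background on 6 of 6 arrays of DSS normal colon and on 1 of 7 of untreated normal colon, and on none of tumours, so it passed the filter only through DSS normal colon and its difference of 0.83 is a description with no test.

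Krt15, the other basal type I keratin, had log2 ratios of 3.15, 3.41, 3.45, 2.78 and 4.25 in DSS rats, against -2.20, -0.16, -0.58, 0.45 and -0.46 in untreated rats. Untreated normal colon lay below the pool in 4 of 5 rats, and the Cy5 signals over background on the 7 arrays of all 5 rats were 518 to 1328. The difference of 4.00 ± 0.62 had an adjusted p of 0.000597. Its Cy3 spot was saturated on 5 of the 6 arrays of DSS normal colon, which limits those ratios from above.

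Of the keratins of activated keratinocytes, Krt6a had 4.17, 4.63, 4.19, 5.84 and 5.78 in DSS rats, against 0.42, -0.13, 0.034, 3.25 and 0.83 in untreated rats. The lowest DSS rat was above the highest untreated one, rat 8, which stood apart from the other 4 untreated rats. The difference of 4.04 ± 0.62 had an adjusted p of 0.000504. With 5 of 6 Cy3 spots saturated for Krt6a, 5 of 6 for Krt15 and 4 of 6 for Krt13, the order of the largest differences among the 9 is not determined. Krt17 had 1.76, 1.85, 0.91, 0.33 and 0.92 in DSS rats, against 0.087, 0.046, 0.079, 0.057 and -0.004 in untreated rats. DSS rats 1 and 5 were the highest and rat 7 the lowest, and the difference of 1.10 ± 0.22 had an adjusted p of 0.00385. With Agilent's processed signals it was 2.77 (adjusted p = 1.99e-05). The Krt17 probe was dim, with Cy3 signals over background of 23.2 to 277 in DSS normal colon, and it was well above background on 2 of 7 untreated arrays.

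The epidermal suprabasal pair rose as a pair. Krt1 had log2 ratios of 2.63, 2.66, 2.29, 3.0 and 3.88 in DSS rats, against 0.059, 0.23, 0.18, 1.91 and 0.0047 in untreated rats, and Krt10 had 3.30, 3.63, 3.03, 3.50 and 4.55, against 0.12, 0.061, 0.14, 1.86 and 0.00063. In both, rat 9 had the highest ratio of the DSS rats and untreated rat 8 stood alone between the groups. The differences were 2.41 ± 0.30 for Krt1 (adjusted p = 7.53e-05) and 3.17 ± 0.29 for Krt10 (adjusted p = 5.07e-06). Krt10 was well above background on 3 of 7 arrays of untreated normal colon, those of rats 4 and 8 and 1 of rat 2, so the size of its difference is only loosely measured. For Krt1 the scanner software did not find the spot in either channel on 3 of the 7 arrays of untreated normal colon, 1 of rat 2, 1 of rat 3 and that of rat 10.

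Of the pair of lining mucosa, Krt13 had 2.14, 1.97, 2.16, 3.01 and 3.10 in DSS rats, against -0.062, 0.39, 0.0084, 2.64 and 0.028 in untreated rats. The groups overlapped on the ratio, because untreated rat 8 was higher there than DSS rats 1, 5 and 6. They did not overlap in Cy3. The normalised log2 Cy3 signal was 10.4 in rat 8, against 15.8 to 15.98 in DSS rats 1, 5 and 6 and 13.3 in DSS rat 7, the lowest. The difference of the ratio was 1.88 ± 0.38 (adjusted p = 0.00525), with 4 of 6 Cy3 spots of DSS normal colon saturated, and 2.39 (adjusted p = 1.96e-06) without rat 8. It did not pass under median centring (1.51, adjusted p = 0.0516) or with Agilent's processed signals (1.24, adjusted p = 0.101). Krt4 had -0.13, 3.59, 2.96, 2.46 and 4.69 in DSS rats, against -0.15, -0.0028, -0.069, 0.71 and 0.0035 in untreated rats. DSS rat 1 was at the level of untreated rats, and on that array the scanner software did not find the spot in either channel. The difference was 2.62 ± 0.55 with rat 1 (adjusted p = 0.00638) and 3.33 without it (adjusted p = 2.78e-05). Krt4 was well above background on 4 of 7 arrays of untreated normal colon.

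**Figure D1:**
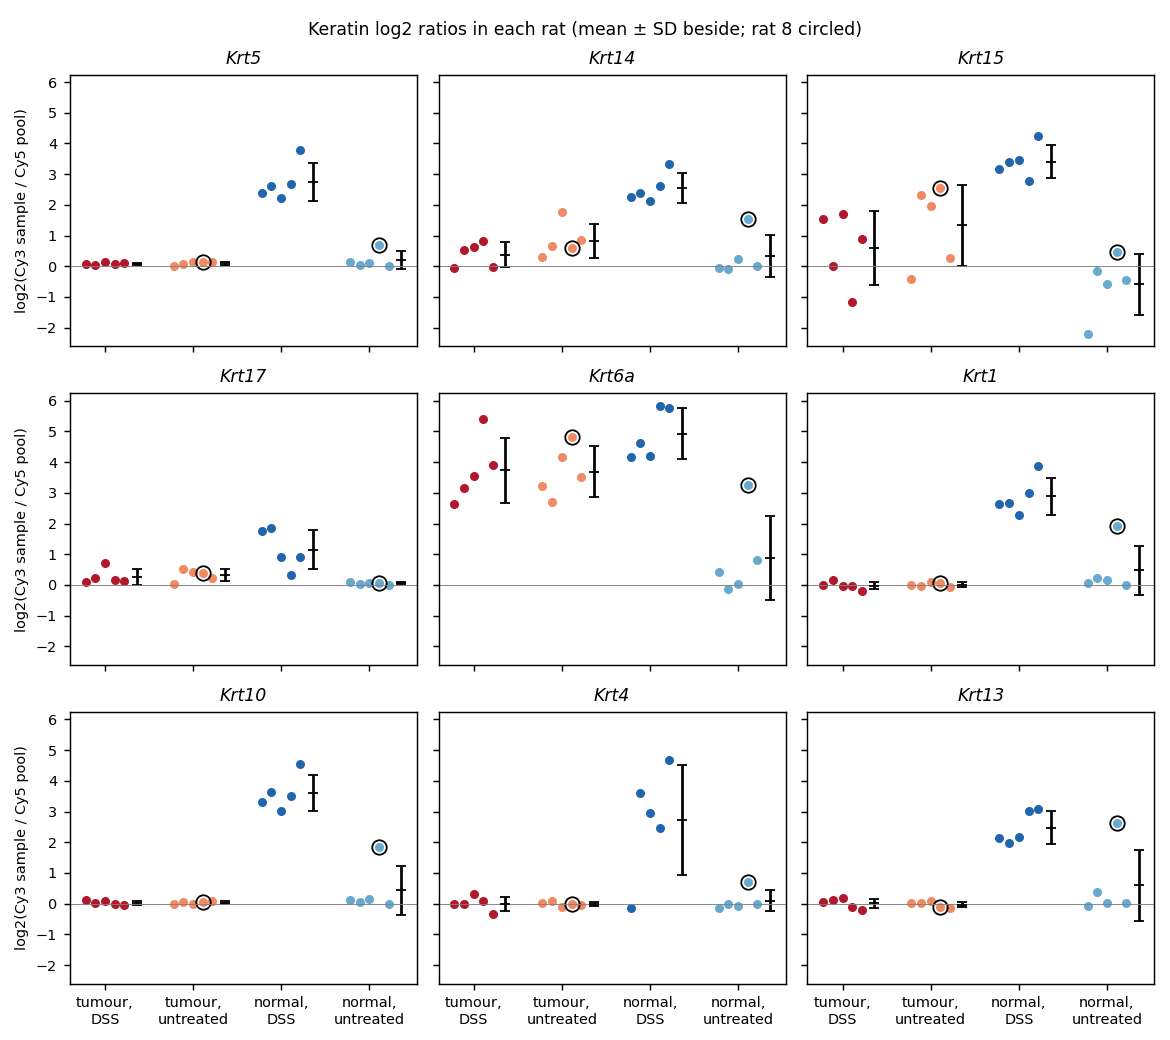
Log2 of sample (Cy3) over wild-type pool (Cy5) for each of the 9 keratins, one point per rat, in tumours of DSS rats, tumours of untreated rats, normal colon of DSS rats and normal colon of untreated rats, with mean and SD of 5 rats beside the points and rat 8 circled. Normal colon of DSS rats is the highest group in all 9, rat 8 stands above the other untreated normal colons in 8 of 9, and DSS rat 1 lies near 0 for Krt4.

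Within the DSS group rat 9 had the highest ratio for 7 of the 9 keratins, with Krt17 highest in rat 5 and Krt6a in rat 7. The order by Cy3 signal was another. Krt5, Krt10 and Krt4 were highest in rat 9 there too, but Krt14 and Krt1 in rat 1. Krt15 and Krt13 were mostly saturated. Rat 7 had the lowest Cy3 signal of the DSS rats for Krt5, Krt14, Krt1 and Krt10. Within untreated normal colon rat 8 was the highest for 8 of the 9, and Krt17 was the exception, at 0.057. The mean over the 9 keratins was 1.46 in rat 8, against -0.18 to 0.045 in the other 4 untreated rats and 2.41 to 3.81 in the DSS rats. Without rat 8, without rats 1 and 5, or without the 3 arrays of raised signal, 9 of 9 were called higher, where 3.16%, 2.49% and 3.08% of all features were. The signal filter was not redone for these fits. Krt10 was well above background on 5 of the 18 arrays outside DSS normal colon, just the number needed. Among them were normal colon of rat 8 and raised arrays of rats 2 and 4. Without rat 8 or the raised arrays Krt10 is kept only through DSS normal colon, so its call then is no support. Krt4 had 7 of those 18 arrays, among them all 3 raised arrays. Without the raised arrays it too falls below the 5 needed, so its call then is no support either. Within slide set 1 the 9 differences ran from 1.44 to 4.32 with 8 of 9 called (5.59% of all features). Within slide set 2, with 2 rats a group, they ran from 0.60 to 3.77 with none called, where 1 of all 26627 features was called higher, and all 9 were above 0 in both sets.

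The 2 channels were also read apart. On the arrays of DSS normal colon the Cy5 signal, which comes from the common pool, was high at these probes along with the Cy3 signal, so the difference of the ratio is smaller than that of the Cy3 channel. For Krt13 the Cy5 signal over background was 2095 to 24156 on the 6 arrays of DSS normal colon, against 21.5 to 535 on the 7 arrays of untreated normal colon. The Cy3 signal there was 10639 to 65193, saturated on 4 of 6 arrays, against 37 to 1063. The labels name the same pool on all these arrays. Krt14 had Cy5 signals of 1153 to 7419 in DSS normal colon, against 49.4 to 354 in untreated normal colon.

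With the Cy5 channel tested alone, 7 of the 9 keratins were called higher in DSS normal colon, all but Krt17 and Krt4, where 0.233% of all features were. The Cy5 difference ran from 1.68 for Krt10 to 5.87 for Krt13 among those 7 and was 0.64 for Krt4 (adjusted p = 0.794) and 0.15 for Krt17 (adjusted p = 0.794). On arrays of DSS normal colon with an unsaturated spot and a Cy3 signal over background of at least 500, the Cy5 signal was 4.45% to 7.53% of the Cy3 signal for Krt4, 4.62% to 10.5% for Krt10, 9.87% to 23.2% for Krt5 and 14.5% to 30.4% for Krt14. Krt4 had 4 such arrays, and Krt10, Krt5 and Krt14 had 6 each. The share was 9.99% to 21.1% for Krt1 on 6 arrays and 14.1% to 19.7% for Krt13 on 2. On 1 array each it was 23.1% for Krt15 and 2.79% for Krt6a, and Krt17 had no such array. The share differed between probes. What made the Cy5 signal rise was not tested.

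The Cy3 channel alone, a comparison chosen after this was seen, called all 9 higher in DSS normal colon (4.62% of all features). Its log2 differences were 7.46 ± 0.54 for Krt13, 6.45 ± 0.60 for Krt14, 5.99 ± 0.63 for Krt6a, 5.85 ± 0.79 for Krt15, 5.31 ± 0.48 for Krt1, 5.27 ± 0.44 for Krt5, 4.97 ± 0.41 for Krt10, 3.40 ± 0.81 for Krt4 and 1.26 ± 0.25 for Krt17. For Krt13, Krt15 and Krt6a, whose Cy3 spots were mostly saturated, saturation limits these values from above.

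**Figure D2:**
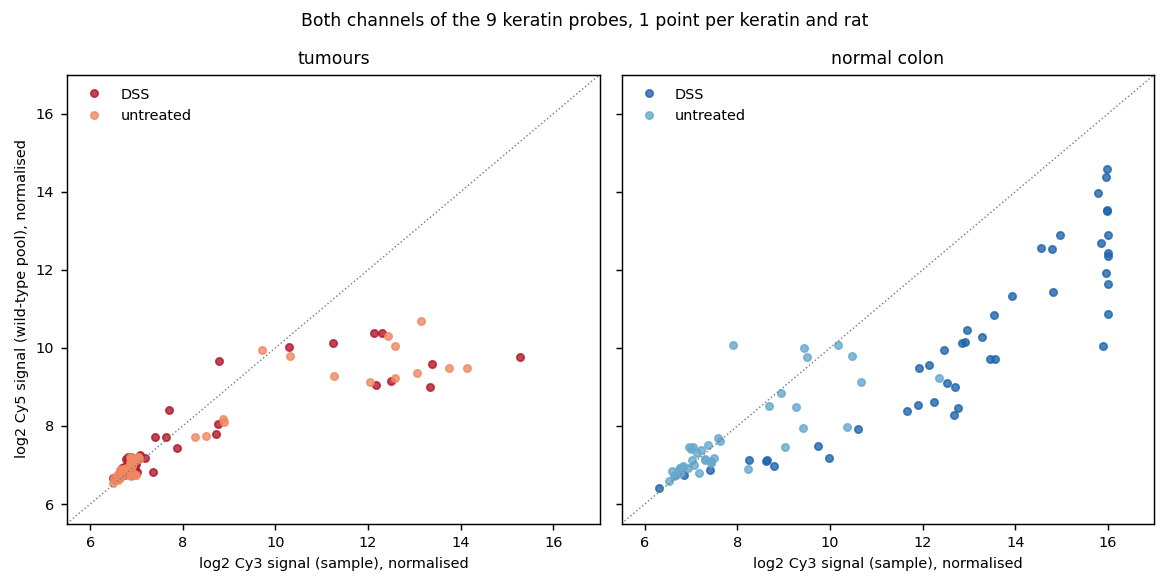
Normalised log2 Cy5 signal of the wild-type pool against normalised log2 Cy3 signal of the sample, one point per keratin and rat, for tumours (left) and normal colon (right), with DSS and untreated rats in separate colours and a dotted line of equal signal. In DSS normal colon the Cy5 signal climbs with the Cy3 signal, and Cy3 values pile up near 16, where the scanner saturates.

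The second comparison, tumours against normal colon in DSS rats, was read against those high levels. Of the 9 keratins 8 were lower in tumours, where 3.87% of all features were called lower, and for 6 of them no tumour reached any normal colon (3.83% of all features). Both these comparisons use the same DSS normal colons, so they are not separate evidence. Krt10 had 0.11, 0.0086, 0.10, -0.013 and -0.037 in tumours of DSS rats, against the 3.03 to 4.55 of their normal colon, a difference of -3.57 ± 0.29 (adjusted p = 1.69e-06). It was well above background on 1 of 6 tumour arrays. Krt1 differed by -2.92 ± 0.30 (adjusted p = 9.83e-06), Krt5 by -2.65 ± 0.21 (adjusted p = 1.11e-06) and Krt13 by -2.47 ± 0.38 (adjusted p = 0.000496).

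Tumours of DSS rats kept little signal of most of these keratins: the ratio was 0.055 to 0.13 for Krt5, -0.19 to 0.15 for Krt1, -0.19 to 0.18 for Krt13 and -0.33 to 0.30 for Krt4. Krt4 differed by -2.71 ± 0.55 (adjusted p = 0.00434), and by -3.42 (adjusted p = 5.78e-05) without rat 1, whose normal colon spot was not found. Krt14 reached 0.83 at most and differed by -2.17 ± 0.32 (adjusted p = 0.000361). Krt17 was lower in all 5 rats, with a difference of -0.88 ± 0.22 (adjusted p = 0.0153), a call that did not hold without rat 1 (adjusted p = 0.0971) or without rat 5 (adjusted p = 0.0889).

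Krt6a and Krt15 stayed measurable in tumours. Krt6a had 2.62, 3.15, 3.56, 5.41 and 3.90 in tumours of DSS rats, against 4.17, 4.63, 4.19, 5.84 and 5.78 in their normal colon. The Cy3 spots of Krt6a and of Krt15 were each saturated on 5 of 6 arrays of that normal colon and on no tumour array. This limits the size of both differences. Krt6a was lower in the tumour of all 5 rats, but the difference of -1.19 ± 0.62 did not pass (adjusted p = 0.307), with a 95% interval of -2.50 to 0.11. With the rat as a fixed block it did (adjusted p = 0.0293), and with Cy3 alone the difference was -2.64 ± 0.63 (adjusted p = 0.0087), where all 9 keratins and 6.89% of all features were called lower. Krt15 had 1.53, 0.0046, 1.71, -1.17 and 0.89 in tumours of DSS rats, against 2.78 to 4.25 in their normal colon, a difference of -2.81 ± 0.62 (adjusted p = 0.00842). Without rat 5 the adjusted p was 0.0515.

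Without rats 1 and 5 the count was 6 of 9 lower, with Krt15 and Krt17 not called, where 0.804% of all features were called lower. Within slide set 1 the 9 differences between tumour and normal colon of DSS rats ran from -3.25 to -1.16 with 6 called (4.63% of all features), and within set 2 from -4.05 to -0.47 with 1 called (0.161%), all below 0.

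The third comparison, tumours against normal colon in untreated rats, gave 2 calls, both higher in tumours, where 8.57% of all features were called higher and 9.43% lower. Krt6a had 3.22, 2.70, 4.17, 4.83 and 3.53 in tumours of untreated rats, against 0.42, -0.13, 0.034, 3.25 and 0.83 in their normal colon. It was higher in the tumour of all 5 rats, by 2.81 ± 0.62 (7.02-fold, adjusted p = 0.00404), and its adjusted p stayed at or below 0.0305 without any single rat. Krt15 had -0.41, 2.33, 1.95, 2.55 and 0.28 in tumours, against -2.20, -0.16, -0.58, 0.45 and -0.46 in normal colon, and was also higher in all 5 rats, by 1.93 ± 0.62 (adjusted p = 0.0386). The Krt15 call did not hold without rat 3, 4, 5 or 8 (adjusted p of 0.0548 to 0.129), without the 3 arrays of raised signal (adjusted p = 0.0691) or with Cy3 alone (adjusted p = 0.0677), which called Krt6a alone of the 9 and 9.08% of all features higher.

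Krt14 averaged 0.83 ± 0.55 in tumours of untreated rats and 0.33 ± 0.70 in their normal colon (SD, n = 5 each). It was higher in 4 of 5 tumours, with rat 8 the exception, and the difference of 0.50 ± 0.32 did not pass in limma (adjusted p = 0.337). Krt13, Krt1 and Krt10 had differences of -0.63, -0.46 and -0.40, with none called, and without rat 8 these came to -0.098, -0.12 and -0.046. Within slide set 1, 1 of 9 was called higher, where 5.03% of all features were, and within set 2 none, where 4.56% were.

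In tumours no keratin was called different between DSS and untreated rats, and 0% of all features were in limma. None of the 9 had an unadjusted p under 0.05, and Cy3 alone called none of them either (0.0488% of all features). The differences ran from -0.74 for Krt15 to 0.038 for Krt6a. The 95% interval was -0.44 to 0.42 for Krt5 and -0.62 to 0.61 for Krt10, but -1.27 to 1.34 for Krt6a and -2.06 to 0.57 for Krt15. A difference of more than 2-fold is within the interval for Krt6a, Krt15, Krt14 and Krt4.

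The difference between the DSS effect in tumours and that in normal colon was tested as an interaction. It was negative for all 9 and called for 6: Krt15 (-4.74 ± 0.88), Krt6a (-4.00 ± 0.88), Krt10 (-3.17 ± 0.42), Krt14 (-2.67 ± 0.46), Krt5 (-2.55 ± 0.29) and Krt1 (-2.45 ± 0.43), where 1.67% of all features were called lower. Adjusted p ran from 0.000236 for Krt5 to 0.0185 for Krt6a among the 6. Krt17, Krt13 and Krt4 did not pass, at -1.16, -1.84 and -2.60 with adjusted p of 0.0511, 0.0842 and 0.0878. With rat as a random block all 9 passed, at 0.0308 for Krt13, 0.0317 for Krt4 and 0.0173 for Krt17. Without rat 8 the adjusted p of Krt13 was 0.000245, and without rat 1 that of Krt4 was 0.0026. Krt6a did not pass without rat 1, 4, 5 or 9 (adjusted p of 0.0502 to 0.0806), and without rats 1 and 5 together 4 of 9 passed, where 0.409% of all features were called lower. Within set 1, 6 of 9 were called (1.35% of all features) and within set 2 none (2 features of all were called lower), with all 9 negative in both.

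**Figure D3:**
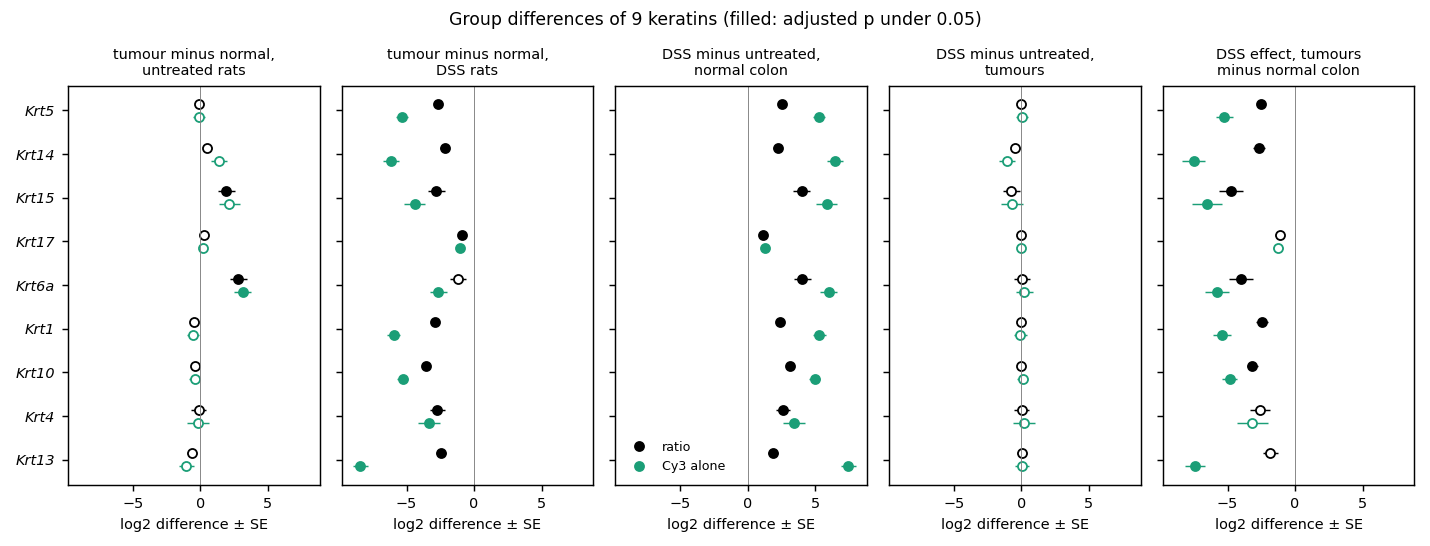
Log2 difference with SE for the 9 keratins in the 5 comparisons, for the ratio (black) and the Cy3 channel alone (green), with filled points for an adjusted p under 0.05. In normal colon and in the tumour comparison of DSS rats most green points lie further from 0 than the black ones, and in the comparison of tumours by treatment none is filled.

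The order of the 4 groups was therefore not the same for all 9. For Krt5, Krt17, Krt1, Krt10, Krt4 and Krt13 the mean of normal colon of DSS rats stood above 3 groups. The means of those groups lay between -0.027 and 0.60 and were not called different in the comparisons made. Krt14 had the same order, again with none of the 3 called different, but with a higher mean in tumours of untreated rats. For Krt6a the means were 3.73 ± 1.05 in tumours of DSS rats, 3.69 ± 0.83 in tumours of untreated rats, 4.92 ± 0.83 in normal colon of DSS rats and 0.88 ± 1.38 in normal colon of untreated rats (SD, n = 5 each). Both tumour means of Krt6a lay between those of DSS normal colon and untreated normal colon. For Krt15 the means were 0.59 ± 1.19, 1.34 ± 1.32, 3.41 ± 0.54 and -0.59 ± 0.99 in the same order of groups. Tumours of DSS rats were not set against normal colon of untreated rats.

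The 9 keratins were next set beside the other keratins of the 2 gene clusters that hold them. In the order of RefSeq genes, the type I cluster holds Krt10, Krt13, Krt15, Krt14 and Krt17 among 27 keratin genes, and the type II cluster, which ends with Krt8 and Krt18, holds Krt6c, Krt5, Krt1 and Krt4 among 27. Of 17 other tested keratins of these clusters, 4 rose in DSS normal colon and none fell, where 3.91% of all features were called higher. The 8 in the type I cluster had a median difference of 0.044 and the 9 in the type II cluster one of 0.077. The 4 that rose were Krt12, a keratin of the cornea (2.56), Krt7, of ducts and transitional epithelium (1.33), Krt79 (1.30) and Krt76, of palate and other oral epithelium (0.26). Krt76 passed the filter only with its arrays of DSS normal colon, being well above background on 3 of the 18 other arrays, so its rise is no support.

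For the simple keratins of the colon the differences between DSS and untreated normal colon were -0.055 for Krt8 (adjusted p = 0.954), -0.077 for Krt18 (adjusted p = 0.916), 0.0034 for Krt19 (adjusted p = 0.996) and -0.0075 for Krt20 (adjusted p = 0.996). None of these 4 was called. Krt19 lies between Krt15 and Krt14 in the annotated order, both of which rose. Krt20, a keratin of differentiated colonocytes, was lower in tumours than in normal colon, with differences of -2.60 in DSS rats (adjusted p = 0.00296) and -1.79 in untreated rats (adjusted p = 0.0174). Krt36, a hair keratin in mouse, went the other way and was higher in tumours, by 1.83 and 2.09 (adjusted p = 0.000662 and 0.00011). It was singled out after its values were seen.

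**Figure D4:**
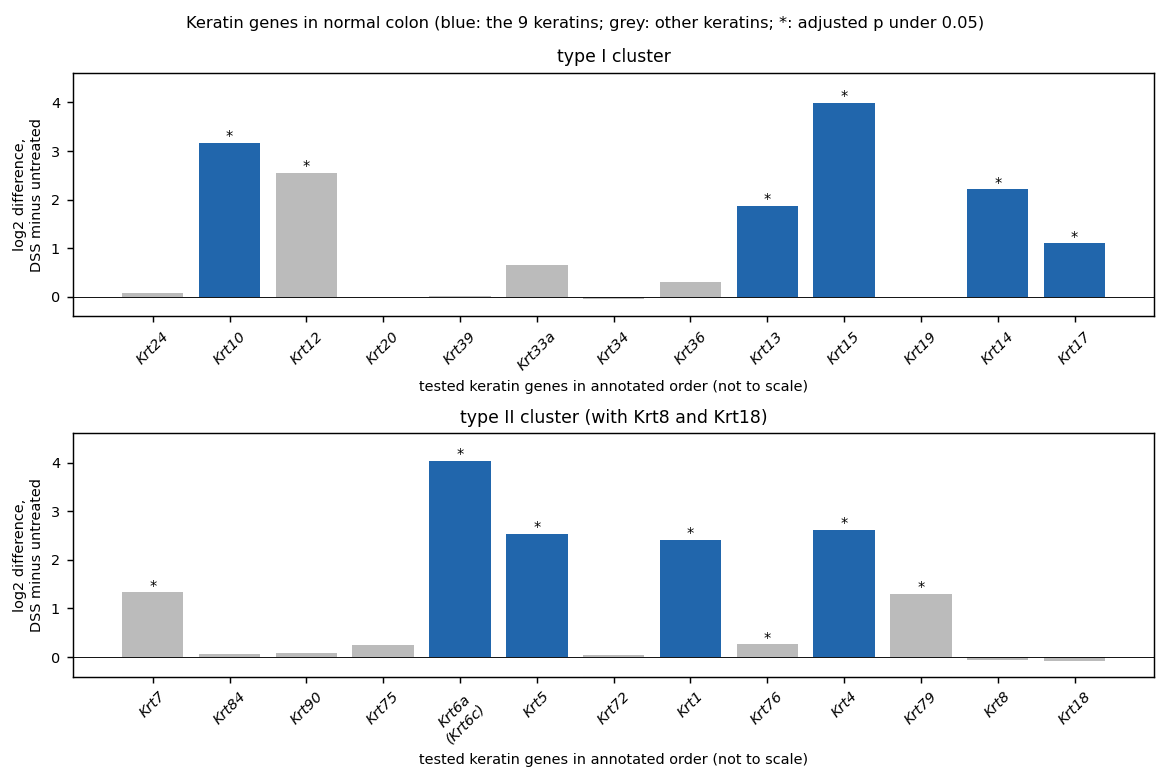
Log2 difference between DSS and untreated rats in normal colon for the tested keratin genes of the type I cluster (top) and the type II cluster (bottom), in annotated order and not to scale, with the 9 keratins in blue, others in grey and a star for an adjusted p under 0.05. All 9 blue bars carry a star, as do Krt12, Krt7, Krt76 and Krt79, while Krt8, Krt18, Krt19 and Krt20 lie near 0.

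Genes that accompany these keratins in stratified epithelia were taken from lists. Of 20 tested genes of the cornified envelope and of keratinocyte differentiation, 19 rose in DSS normal colon and none fell, where 3.91% of all features were called higher. The median difference was 2.75, against -0.015 over all features. Elovl4, among the 19 that rose, passed the filter only through DSS normal colon, and without it 18 of 19 rose. Fabp5, a fatty acid carrier of keratinocytes, differed by 5.29 ± 0.43 (adjusted p = 1.76e-06), Slurp1, a secreted protein of differentiating keratinocytes, by 4.18 ± 0.34 (adjusted p = 1.76e-06), and Tgm1, the transglutaminase that cross-links the envelope, by 2.38 ± 0.22 (adjusted p = 5.75e-06). Tgm3 was the 1 gene not called, at -1.87 (adjusted p = 0.0967). In tumours against normal colon of DSS rats 16 of these 20 were lower, with a median of -2.44, where 3.87% of all features were called lower. Elovl4 is among the 16, and since it passed the filter only through DSS normal colon, it is no support there either. Fabp5, Tgm1, Sprr1a and Tgm3 were not called there, and Tgm1 averaged 2.14 in tumours of DSS rats and 2.46 in their normal colon. In tumours against normal colon of untreated rats 4 of the 20 were higher and 1 lower, where 8.57% of all features were called higher and 9.43% lower. Those higher were Fabp5 by 4.14 (adjusted p = 6.25e-06), Sprr1a, a cross-linked envelope protein, by 2.85 (adjusted p = 0.00257), Tgm1 by 2.39 (adjusted p = 2.27e-06) and Cnfn, cornifelin, by 1.58 (adjusted p = 0.00948). Tgm3 was lower, at -2.94 (adjusted p = 0.0042). In the Cy5 channel alone 9 of the 20 were higher in DSS normal colon, where 0.233% of all features were.

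Against 3.91% of all features called higher, 3 of 13 tested basal partners and regulators rose and none fell. These were Tp63, the transcription factor that defines the basal layer, Sox2, a transcription factor of the oesophageal basal layer, by 1.77 ± 0.31 (adjusted p = 0.00156), and Grhl3, a factor of epidermal barrier formation, by 2.23 ± 0.43 (adjusted p = 0.00327). The tested Tp63 probe was well above background on 6 of 6 arrays of DSS normal colon, on 2 of 7 of untreated normal colon and on no tumour array, so it passed the filter only through DSS normal colon and its log2 difference of 4.40 is a description with no test. Without it 2 of 12 rose. The Cy5 signal of these 3 was not called different, with adjusted p of 0.794, 0.949 and 0.866, and their Cy3 differences of 4.33, 1.82 and 2.34 were close to those of the ratio. The list's median was 0.19.

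Of 20 tested genes of desmosomes and hemidesmosomes, the junctions that anchor keratin filaments, 3 rose and none fell, with a median of 0.23. Over all features 3.91% were called higher. Periplakin, Ppl, a linker of filaments to desmosomes, differed by 2.16 ± 0.33 (adjusted p = 0.000418). The desmosomal cadherins Dsc3 and Dsg3 differed by 0.74 ± 0.19 (adjusted p = 0.023) and 0.28 ± 0.078 (adjusted p = 0.0389), and both are specific to stratified epithelia. Each was well above background on 5 of the 18 arrays outside DSS normal colon, just the number needed. Of the 7 arrays of untreated normal colon, each had 2, so both differences are only loosely measured. The other 17 were not called. Among other keratins of stratified epithelia, 5 of 14 could be tested, and Krt12, Krt76 and Krt79 rose as given above, of which Krt76 passed the filter only through DSS normal colon.

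Markers of other cell types were read beside these results. All 9 colonic epithelial markers were tested and none was called between DSS and untreated normal colon. Their mean log2 ratio ran over -1.10 to -0.48 in DSS rats, against -0.75 to 0.038 in untreated rats, and the lowest untreated value was that of rat 8. Of the 6 urothelial markers 3 were tested. Upk1b, a plaque protein of urothelium, rose by 5.82 (adjusted p = 3.81e-05) and Grhl3 as given above, while Upk3a, which defines urothelial plaques, had 0.95 (adjusted p = 0.168). The mean of the 3 was 0.17 to 2.72 in DSS normal colon, against -1.77 to -0.57 in untreated normal colon, and its part in the keratin result was not tested. In rat 8 that mean was -1.25, within the range of the other untreated rats.

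Of 14 hair follicle markers 5 were on the array and 3 were tested, Krt34, Krt72 and Tchh, with differences of -0.038, 0.04 and 0.0045, none called. Krt34, Krt72, Krt25 and Krt32 were well above background on no array of DSS normal colon, and Tchh, a protein of the inner root sheath, on 2 of 6. None of 3 smooth muscle markers was called. Of 4 leukocyte markers 1 rose, Lyz2, the lysozyme of macrophages in mouse, by 2.29 (adjusted p = 0.000167), and its part was not tested. Of the mesothelial and myoepithelial markers only Msln was tested, at 0.44 (adjusted p = 0.711).

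**Figure D5:**
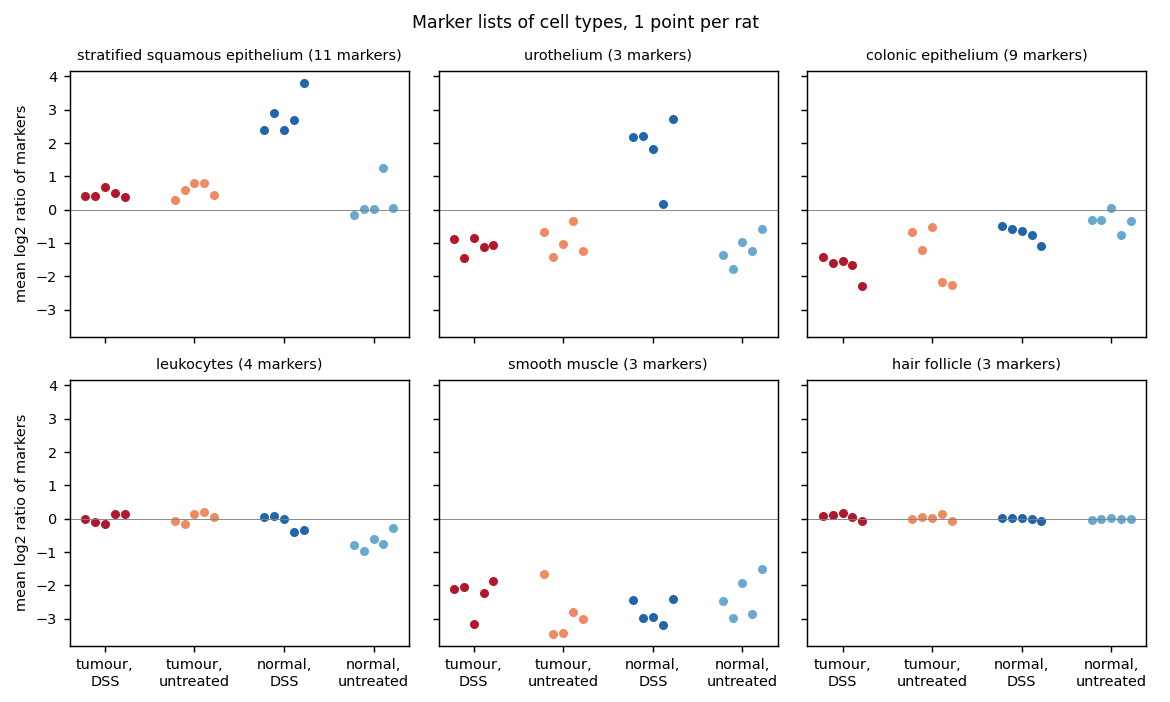
Mean log2 ratio of the tested markers of 6 cell types, one point per rat, in tumours of DSS rats, tumours of untreated rats, normal colon of DSS rats and normal colon of untreated rats. The squamous list, which holds the 9 keratins with Tp63 and Dsg3, and the urothelial list are highest in normal colon of DSS rats, while the hair follicle list stays near 0 in every group.

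The genes whose ratios over the 20 samples were most like the mean of the 9 keratins, outside the lists above, were Klk6 (Pearson r = 0.974), Trim29 (0.973), Klk10 (0.972), Serpinb10 (0.965), Tprg1 (0.962), Pinlyp (0.961), Prom2 (0.961) and Prss27 (0.960). The samples form 1 high group and 3 low ones, so r mostly restates the separation of DSS normal colon, and no p is given. Klk6 and Klk10 are kallikrein-related peptidases and Prss27 is another serine protease, Serpinb10 is a protease inhibitor of the serpin family, and Trim29 is a tripartite-motif protein of basal cells. In DSS normal colon they were above untreated normal colon by 2.43 for Klk6, 2.70 for Trim29, 2.51 for Klk10, 2.25 for Serpinb10, 3.12 for Tprg1, 2.79 for Pinlyp, 2.03 for Prom2 and 1.99 for Prss27. Serpinb10 was well above background on all 6 arrays of DSS normal colon and on 1 of the 18 others, so it passed the filter only through that group. The 3 least alike were Pklr, a pyruvate kinase (r = -0.85), Nid1, a basement membrane protein (-0.82), and Lap3, an aminopeptidase (-0.82).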

How the data were processed

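Per the file headers, each deposited scanner file holds, for every spot, mean and background intensity in Cy3 and Cy5 and the authors' log10 ratio of Cy5 over Cy3, made with Agilent Feature Extraction 9.1.3.1; the genome build is not given in the sources used here. The mean and background intensities as deposited were corrected with normexp (offset 50) and each array was loess normalised, with control and non-uniform spots at weight 0, in limma 3.58.1 under R 4.3.3. The sign was turned to sample over pool; no dyes were swapped, so dye effects are not separated. The deposited log10 ratio and processed signals served as an alternative.

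Probes well above background in Cy3 on at least 5 of 24 arrays were kept, the brightest for each symbol. Repeat arrays of a sample were averaged, which left 20 samples, 5 rats a group. Group means were fitted with limma (16 residual degrees of freedom) over 26627 features, 13384 of them with a current symbol, with an adjusted p threshold of 0.05 and 95% intervals. The fit was tested on simulated data. Rats are the replicates, and their number limits the precision.

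Tumour and normal colon of the same number come from the same rat, and their deviations from the group means correlated at 0.0792 to 0.568, so fits with the rat as a block are given where they change a call.

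The 9 keratins and all lists were chosen with earlier results of these data known. Named genes are the 9 keratins, the list genes of lowest adjusted p between DSS and untreated normal colon, the 8 genes most and 3 least like the mean of the 9, and markers. Alternatives changed the background correction, normalisation, probe filter, probe summary, second arrays, array weights, slide blocks and rats included; Cy3 alone and the fit without rats 1 and 5 were added after seeing the data.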

Additional observations from a re-analysis of the deposited data

Results flagged for a closer look

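In normal colon of untreated rats, rat 8 stood far above the other 4 rats of its group for 7 keratins: 0.70 for Krt5, 1.55 for Krt14, 3.25 for Krt6a, 1.91 for Krt1, 1.86 for Krt10, 0.71 for Krt4 and 2.64 for Krt13, as log2 of sample over pool. In tumours of DSS rats, rat 6 stood apart for Krt17, at 0.72. These were found by the gap to the nearest rat as a share of the group's range, above Dixon's critical value of 0.71 for 5 samples. Of 36 groups tested 8 passed, where chance passes about 1 in 20, and the 7 of rat 8 come from the same sample.

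The DSS effect in tumours differed from that in normal colon, by the interaction in limma, for Krt5 (-2.55), Krt14 (-2.67), Krt15 (-4.74), Krt6a (-4.00), Krt1 (-2.45) and Krt10 (-3.17).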

How the results depend on the processing

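The count of keratins called between DSS and untreated normal colon (9) fell to 0 in slide set 2 alone, which has 2 rats a group, and was 8 or 9 under every other alternative. The count for tumours against normal colon of DSS rats (8) was 1 in slide set 2 alone and 6 to 9 elsewhere. That for untreated rats (2) was 0 in slide set 2 alone and 1 in slide set 1 alone, under median centring, with no filter on dim probes, without the 3 arrays of raised signal, with Cy3 alone and without rats 1 and 5. The interaction count (6) was 0 in slide set 2 alone and 3 under median centring. In tumours it was 0 throughout. Leaving out each rat in turn gave 9 to 9, 6 to 8, 1 to 2, 5 to 7 and 0 to 0 in the same order. With the replicate block, rat as a fixed block gave 9, 2 and 6 for the tumour comparisons of DSS and untreated rats and the interaction, and rat as a random block gave 9 for the interaction; apart from Krt6a in tumours of DSS rats and Krt17, Krt4 and Krt13 in the interaction, it changed no call of a keratin. No called value changed sign. The signal filter was not redone where rats or arrays were left out, which bears on Krt10 and Krt4, as given above. Over all features, median centring gave 297 higher and 69 lower between DSS and untreated normal colon, against 1041 and 890 with loess, 398 and 264 against 993 and 1030 for tumours in DSS rats, 353 and 564 against 2282 and 2512 in untreated rats, and 55 and 136 against 222 and 445 for the interaction. It shifted the median of all features by 0.25 for tumours in DSS rats and 0.38 for the interaction. Under it Krt13 between DSS and untreated normal colon was 1.51 (adjusted p = 0.0516), and with Agilent's processed signals 1.24 (adjusted p = 0.101). With those signals Krt17 was 2.77 there and 1.68 (adjusted p = 0.000923) for tumours in untreated rats. The cause of these changes was not tested. Slide set 2 also holds fewer rats a group than slide set 1. Saturated Cy3 spots and dim Krt17 signals limit the sizes given.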
